A study of Homo sapiens with 6 samples.

Results

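The ZNF genes of chromosome 19 were compared in SK-N-AS cells, a human neuroblastoma line, with and without induction of the transcription factor MYCN. They were chosen as the protein-coding genes on chromosome 19 whose symbol is ZNF, a number and at most 1 letter. This rule gave 246 of the 60651 gene identifiers, with 113 on the minus strand and 133 on the plus strand. It left 262 ZNF genes on the other chromosomes and 1226 other protein-coding genes on chromosome 19. The rule used name and position only and no measured value. All 6 libraries came from cells stably carrying a tetracycline-inducible MYCN gene and the tetracycline repressor, grown as single clones under G418 and blasticidin. The 3 control libraries were labelled ETOH and the 3 induced libraries were labelled Tet, each taken at 120 h. Libraries held total RNA from which ribosomal RNA had been removed. No cells given tetracycline without the MYCN gene were analysed here, so tetracycline and MYCN cannot be told apart. The labels do not say which libraries came from separate cultures, although the study's methods describe independent biological replicates. If they did not, the p-values measure only technical spread.

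ZNF genes encode proteins with runs of C2H2 zinc fingers, each of which can contact a few bases of DNA. Many on chromosome 19 also carry a KRAB box at the N-terminus, which binds TRIM28 (KAP1). TRIM28 in turn brings in SETDB1, an H3K9 methyltransferase, and HP1 proteins, so that the bound site is silenced. Many KRAB zinc finger proteins bind transposable elements. The genes arose by tandem duplication and lie in clusters, and several clusters carry H3K9me3 over the finger exons of their own genes. MYCN binds E-boxes, of which CACGTG is the canonical form, together with its partner MAX.

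Of the 246 genes, 209 encode a KRAB-box pattern and 37 do not. The median was 13 finger patterns per protein, with a range from 1 to 39. Sorted by start and split wherever neighbouring starts were over 1 Mb apart, they formed 16 positional clusters, numbered here along the chromosome from cluster 1, and 4 of these clusters held 1 gene. Cluster 16, at the end of the long arm (chr19:55476617-58481230, GRCh38), was the largest with 59 genes. It was followed by cluster 15 with 39 genes (chr19:51571283-53580269), cluster 5 with 37 genes next to the centromere on the short arm (chr19:19668796-24129968), cluster 9 with 26 genes (chr19:36182276-37817300), cluster 3 with 25 genes (chr19:11483427-12640098) and cluster 12 with 24 genes (chr19:43525497-45076587).

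Promoter sequences of 216 of the 246 genes were found in RefSeq (GRCh38.p14), each holding 250 bases before and 50 bases after the gene start. The E-box CACGTG, which reads the same on both strands, was present in 9 of them (4.17%), against 2548 of 35116 promoters of all genes (7.26%). By contrast CCGGAAG, the core of the motif bound by ETS factors, searched on both strands, was present in 98 of the 216 (45.4%), against 10.3% of all promoters. It was present in 34.3% of 213 promoters of ZNF genes on other chromosomes and in 13.1% of 949 promoters of other protein-coding genes on chromosome 19. The motifs do not overlap. A match describes these letters only and shows no binding. Printed here are the promoters of ZNF274 and ZNF792, which had the smallest adjusted p among genes above 5 CPM that were higher or lower after induction, and of the 4 genes that carry CACGTG and whose groups did not overlap. ZNF460 and ZNF587B were the higher ones and ZNF587 and ZNF324 the lower ones. CACGTG and CCGGAAG or its complement CTTCCGG are in capitals.
ZNF274 promoter (chr19:58182811-58183110, plus strand): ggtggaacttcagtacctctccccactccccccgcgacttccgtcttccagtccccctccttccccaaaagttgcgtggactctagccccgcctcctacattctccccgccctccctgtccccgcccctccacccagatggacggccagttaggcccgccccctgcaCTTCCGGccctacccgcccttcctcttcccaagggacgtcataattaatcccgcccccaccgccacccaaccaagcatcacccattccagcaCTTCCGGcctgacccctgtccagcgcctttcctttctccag
ZNF792 promoter (chr19:34964180-34964479, minus strand): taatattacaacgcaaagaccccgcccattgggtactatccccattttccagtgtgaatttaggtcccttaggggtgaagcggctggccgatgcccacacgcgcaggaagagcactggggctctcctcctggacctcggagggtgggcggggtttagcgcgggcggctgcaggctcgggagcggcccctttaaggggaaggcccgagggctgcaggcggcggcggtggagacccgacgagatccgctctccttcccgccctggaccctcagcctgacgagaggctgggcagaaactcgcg
ZNF460 promoter (chr19:57279732-57280031, plus strand): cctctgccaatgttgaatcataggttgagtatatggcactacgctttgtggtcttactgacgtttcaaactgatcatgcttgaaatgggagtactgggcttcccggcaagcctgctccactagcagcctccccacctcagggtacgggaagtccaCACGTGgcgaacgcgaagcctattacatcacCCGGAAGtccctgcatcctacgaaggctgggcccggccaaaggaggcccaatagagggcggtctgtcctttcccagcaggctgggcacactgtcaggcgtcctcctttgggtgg
ZNF587B promoter (chr19:57830049-57830348, plus strand): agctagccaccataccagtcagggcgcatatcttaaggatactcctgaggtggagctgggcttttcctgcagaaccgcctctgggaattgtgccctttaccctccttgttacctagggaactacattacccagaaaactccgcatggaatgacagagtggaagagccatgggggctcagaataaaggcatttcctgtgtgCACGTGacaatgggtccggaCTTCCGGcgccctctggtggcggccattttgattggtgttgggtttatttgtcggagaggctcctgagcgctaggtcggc
ZNF587 promoter (chr19:57849609-57849908, plus strand): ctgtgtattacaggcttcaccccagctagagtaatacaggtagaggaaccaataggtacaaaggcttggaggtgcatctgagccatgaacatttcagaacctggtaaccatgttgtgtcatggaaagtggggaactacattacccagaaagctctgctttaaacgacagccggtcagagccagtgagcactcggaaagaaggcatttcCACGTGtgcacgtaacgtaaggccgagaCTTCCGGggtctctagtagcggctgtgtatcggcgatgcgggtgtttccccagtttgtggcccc
ZNF324 promoter (chr19:58466830-58467129, plus strand): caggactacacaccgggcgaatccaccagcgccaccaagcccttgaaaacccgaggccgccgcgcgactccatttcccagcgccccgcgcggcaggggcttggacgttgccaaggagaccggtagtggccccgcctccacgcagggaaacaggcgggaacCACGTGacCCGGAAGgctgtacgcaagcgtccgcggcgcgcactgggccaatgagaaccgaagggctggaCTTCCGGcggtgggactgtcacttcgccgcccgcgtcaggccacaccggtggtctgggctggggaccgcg
The promoters of ZNF274 and ZNF792 hold no CACGTG. In ZNF460 the motif starts at -95 from the gene start, in ZNF587B at -50, in ZNF587 at -42 and in ZNF324 at -90. Of the 9 genes with CACGTG, 7 were tested, and 2 were higher and 2 lower without overlap of the groups. That is 57.1% of the 7, against 26.3% of all genes. None of the 7 passed the threshold of 0.05 on the adjusted p, and the 4 were printed because their groups were apart. The RefSeq start of ZNF587B lies inside the gene as the deposited annotation has it, so its window is not at the first annotated exon.

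MYCN was at 30.3, 35.5 and 32.4 CPM (counts scaled to library size, with TMM factors) in the control libraries and at 211, 221 and 199 CPM in the induced libraries. This is a log2 fold change of 2.68 with an SE of 0.08 and an adjusted p of 4.15e-05 (edgeR quasi-likelihood test, Benjamini-Hochberg adjustment over 29086 genes). Library totals ran from 64500589 to 102249336 counts. Induced replicate 3 stood apart from the other 5, at 69.1 on the first principal component (44.8% of variance) where the other induced libraries were at 14.4 and 13.1 and the controls between -40.3 and -25.9. A list of 17 stress response genes moved with it. The median of the list above the control mean was 3.05 on the log2 scale in that library and 1.09 and 0.44 in the other induced libraries. The part of this in the ZNF results was not tested, and counts are also given without that library. Of 9 markers of the adrenergic state of neuroblastoma, 0 were under 1 CPM in the controls. HAND2 and GATA3 were at 442 and 121 CPM, and DBH and TH at 8.24 and 1.08 CPM. Of 9 markers of the mesenchymal state, 2 were under 1 CPM, RUNX1 and CD44. VIM, TWIST1, FN1 and YAP1 of that list were at 364, 58.2, 56.7 and 45.9 CPM, so markers of both states were present. CD44 was at 0 in every library, and the summed levels of the leukocyte, epithelial and endothelial marker lists reached at most 2.38 CPM in any library. In bulk RNA, fewer cells of a type and less RNA per cell cannot be told apart.

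Most of the 246 genes were expressed, but at low levels. On the TPM scale, which corrects for length, the mean over the 6 libraries was under 0.1 in 51 genes, from 0.1 to 1 in 24, from 1 to 5 in 84, from 5 to 10 in 52 and 10 or more in 35. The median was 3.15 TPM over all 246. Over the 201 genes that passed the count filter it was 4.59 TPM, against 6.25 TPM for all protein-coding genes that did. Of the 45 genes that did not pass, 5 had no count in any library (ZNF69, ZNF492, ZNF728, ZNF677 and ZNF835, named after their values were seen). At the other end, ZNF146, which consists almost only of fingers and has no KRAB box, was at 104 TPM. ZNF121 was at 57.8, ZNF460 at 44.6, ZNF850 at 29.2 and ZNF260, known as a cardiac regulator, at 27.5 TPM. All 246 genes together gave 1420, 1300 and 1222 TPM in the control libraries and 1373, 1506 and 1144 TPM in the induced libraries, so the groups overlapped and induced replicate 3 had the lowest sum.

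**Figure D1:**
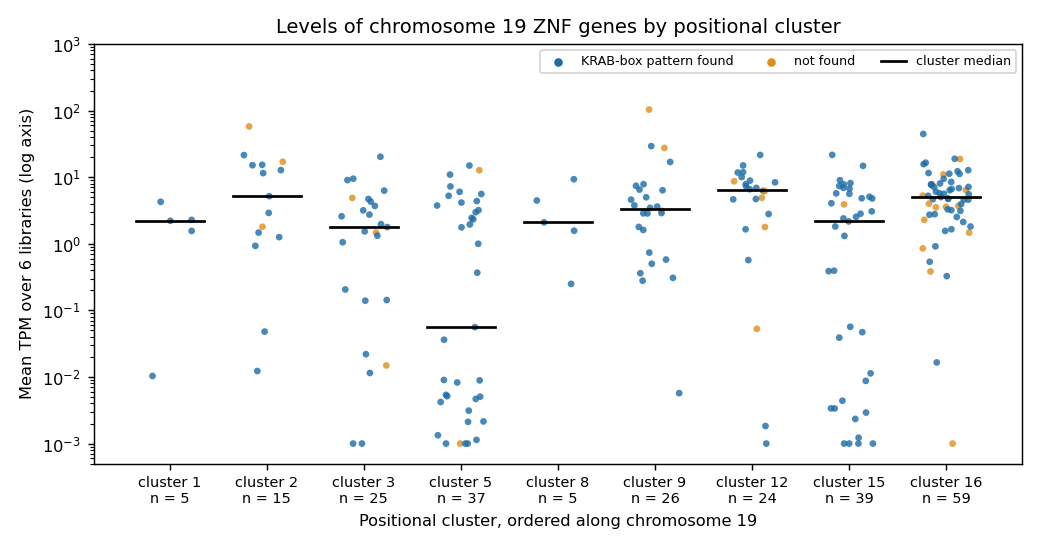
Mean TPM over the 6 libraries (log axis, values under 0.001 drawn at 0.001) for each gene of the 9 positional clusters with at least 5 genes. Points are genes, blue where the KRAB-box pattern was found and orange where it was not, and bars are cluster medians. Cluster 5 has the lowest median, 0.056 TPM, and cluster 12 the highest, 6.42 TPM.

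Levels differed between clusters. In cluster 5 only 19 of 37 genes passed the count filter and the median was 0.056 TPM. This cluster holds ZNF91, which silences SVA retrotransposons, at 5.58 TPM, and ZNF93, known to bind LINE-1 elements, which had counts in 2 of the 6 libraries and was at 0.00114 TPM. In cluster 12, 21 of 24 genes passed and the median was 6.42 TPM. Medians were 5.18 TPM in cluster 2, 5.02 in cluster 16, 3.29 in cluster 9, 2.17 in cluster 15 and 1.78 in cluster 3. Counting used unique alignments, so recently duplicated genes lose reads that fit several copies, and levels of close paralogs are uncertain. In 62 of the 246 genes at least 10% of exon bases are shared with another gene, and in 9 at least 50%.

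After induction none of the 201 tested genes passed the threshold of 0.05 on the adjusted p, either higher or lower (edgeR). In all 29086 genes tested, 3.4% were called, 1.02% higher and 2.38% lower. At an unadjusted p under 0.05 there were 25 of the 201 genes, 13 higher and 12 lower, which is 12.4% where all genes gave 18.7% (8.13% higher and 10.6% lower). DESeq2 called 6 genes, 3 higher and 3 lower, where over all genes it called 7.23% (3.11% higher and 4.12% lower). ZNF274, ZNF813 and ZNF85 were higher and ZNF233, ZNF302 and ZNF792 were lower. The 3 induced libraries lay above all controls in 20 genes and below all controls in 28, together 23.9%, against 26.3% of all genes. Neither share of the ZNF genes exceeded that of all genes.

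**Figure D2:**
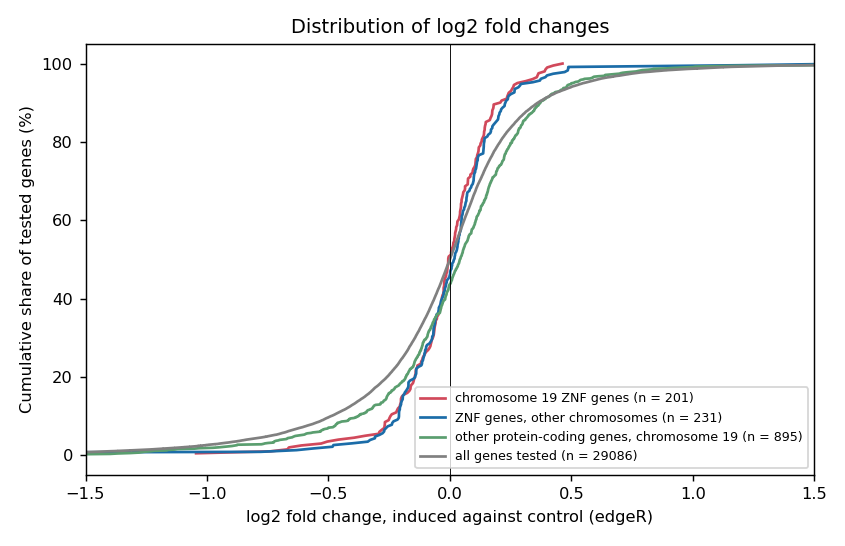
Cumulative share (%) of tested genes by log2 fold change, induced against control (edgeR), for the chromosome 19 ZNF genes (201), ZNF genes of other chromosomes (231), other protein-coding genes of chromosome 19 (895) and all genes (29086). Both ZNF curves are steeper around 0 than that of all genes.

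The fold changes lay close to 0. The median was -0.01 on the log2 scale over the 201 genes and 0.00 over all genes, with 99 of 201 above 0. In 194 of 201 genes (96.5%) the log2 fold change was within 0.5 in either direction. This held for 97.4% of tested ZNF genes of other chromosomes and 87.65% of tested protein-coding genes. The 95% interval lay wholly within 0.5 in 155 genes (77.1%), against 39.6% of all genes tested. The median SE was 0.11 in the ZNF genes and 0.17 over all genes, so these 2 shares also differ in precision. Among ZNF genes of the other chromosomes 5 of 231 passed the threshold, 2 higher and 3 lower, and the median was 0.02. Of the other protein-coding genes of chromosome 19, 12 of 895 passed, 1 higher and 11 lower, with a median of 0.04. That an individual gene missed the threshold does not show that it was unchanged, since 46 of the 201 intervals reached beyond 0.5.

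ZNF792 had the smallest adjusted p in edgeR. It encodes a KRAB protein with 13 fingers (chr19:34956354-34964229, minus strand, cluster 8). It was at 28.5, 29 and 26.6 CPM in the controls and 22.9, 20.7 and 22.5 CPM in the induced libraries. All 3 induced libraries were below all controls, and the means were 28.0 ± 1.2 and 22.0 ± 1.2 CPM (SD, n = 3). The log2 fold change was -0.35 (SE 0.08, 95% interval -0.53 to -0.16) with an adjusted p of 0.061 in edgeR and 0.0122 in DESeq2, and it ran from 0.0122 to 0.299 over all alternatives.

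ZNF274 binds the 3' ends of other zinc finger genes and brings SETDB1 to them (chr19:58183029-58213562, plus strand, cluster 16). It was at 11.6, 10.7 and 10.4 CPM in the controls and 16.1, 13.3 and 14.6 CPM after induction. The groups did not overlap. The log2 fold change was 0.43 (SE 0.10, 95% interval 0.19 to 0.66) with an adjusted p of 0.0719 in edgeR and 0.00461 in DESeq2, with a range from 0.00461 to 0.311 over all alternatives. Its level was 2.52 TPM. The proteins that KRAB boxes work through differed by less than their spread. TRIM28 was at 195 ± 32.0 CPM in controls and 193 ± 6.14 CPM after induction (adjusted p 0.967 in edgeR), and SETDB1 at 114 ± 7.69 and 108 ± 13.7 CPM (adjusted p 0.746).

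**Figure D3:**
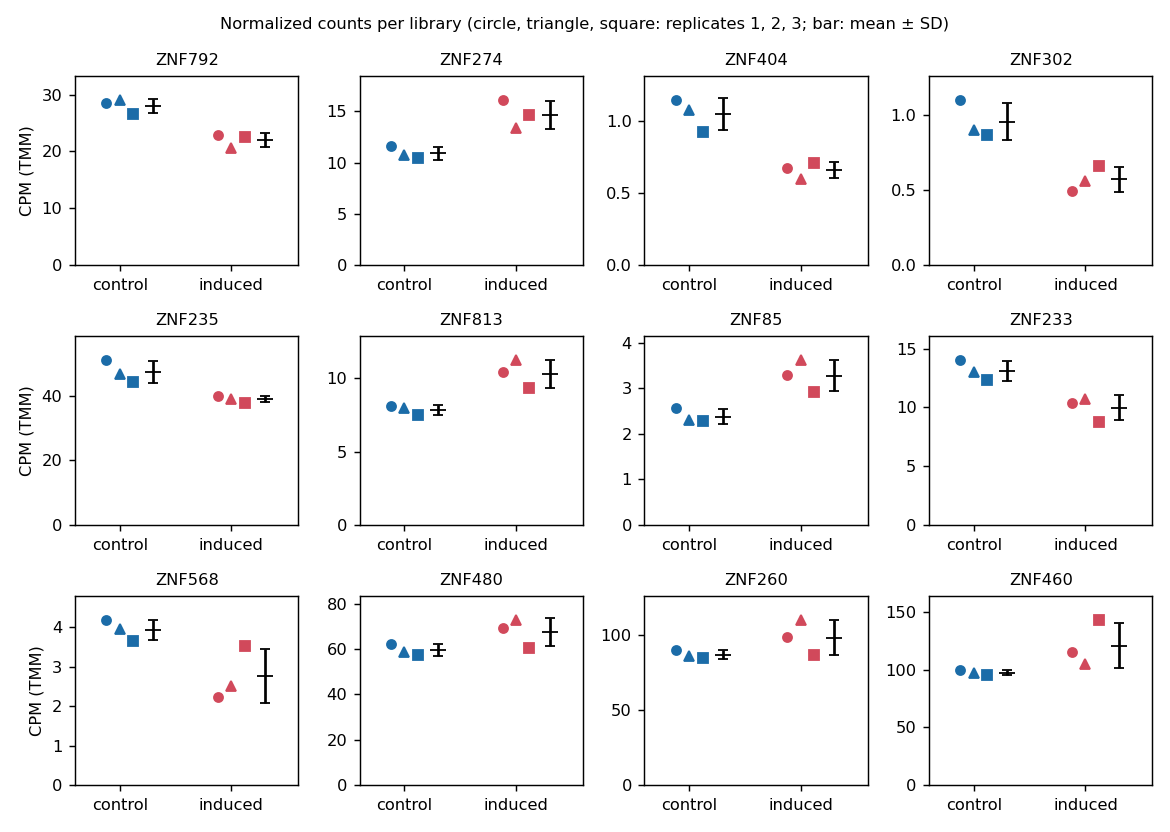
TMM-normalized CPM per library for 12 genes, with replicates 1, 2 and 3 as circle, triangle and square and the mean ± SD (n = 3) beside them. The genes were picked after their p-values were seen, so separation of the groups partly follows from the choice. ZNF792, ZNF274, ZNF813 and ZNF85 separate the groups, while in ZNF480 and ZNF260 induced replicate 3 reaches the control range.

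Further genes differed by about as much. ZNF813 (13 fingers, cluster 15) was at 8.11, 7.97 and 7.49 CPM in controls and 10.4, 11.2 and 9.32 CPM after induction. Its log2 fold change was 0.39 (SE 0.11) with an adjusted p of 0.0956 in edgeR and 0.013 in DESeq2 (0.013 to 0.334 over the alternatives). ZNF85 (15 fingers, cluster 5) was at 2.56, 2.30 and 2.27 CPM in controls and 3.30, 3.61 and 2.93 CPM after induction. Neither gene had an induced library within the control range. The log2 fold change of ZNF85 was 0.46 (SE 0.13), the largest among tested genes of at least 1 CPM, with an adjusted p of 0.103 in edgeR and 0.0286 in DESeq2 (0.0286 to 0.375). ZNF787 and ZNF880 also ranked among the 5 largest, with 0.40 and 0.39, but their groups overlapped. ZNF787 was at 8.79, 13.1 and 15.7 CPM in controls and 13.9, 16.2 and 19.5 CPM after induction. Each induced library lay above the control of the same number. Its adjusted p in edgeR was 0.374, and 0.108 with a replicate block and 0.071 with a GC correction (0.071 to 0.659 over the alternatives). ZNF880 was at 2.42, 2.7 and 5.17 CPM after induction against 2.83, 2.73 and 2.32 CPM in controls, so that its value came from induced replicate 3, and without it the log2 fold change was -0.02.

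On the lower side, ZNF568 had the largest fold change above 1 CPM. Its mouse counterpart represses a placental Igf2 transcript. It was at 4.17, 3.95 and 3.66 CPM in controls and 2.23, 2.52 and 3.53 CPM after induction. Induced replicate 3 lay next to the controls. The log2 fold change was -0.50 (SE 0.18, adjusted p 0.181 in edgeR) with all libraries and -0.71 (adjusted p 0.0162) without that library, with adjusted p from 0.0162 to 0.437 over all alternatives. ZNF233 and ZNF235 overlap in position on opposite strands in cluster 12. ZNF233 was at 14, 13 and 12.3 CPM in controls and 10.4, 10.7 and 8.76 CPM after induction (log2 fold change -0.39, SE 0.11, adjusted p 0.106 in edgeR). ZNF235 was at 51.0, 46.7 and 44.4 CPM and at 39.9, 39.2 and 37.9 CPM (-0.28, SE 0.08, adjusted p 0.0953). Both had all induced libraries below all controls. ZNF235 shares 23.3% of its exon bases with other genes and ZNF233 shares 4.2%, and the deposited counts carry no strand option, so reads of overlapping exons cannot be assigned to 1 gene. For ZNF784, a short gene without a KRAB box, the value was -0.29 (adjusted p 0.268 in edgeR). Below 1 CPM, and named after their values were seen, ZNF302 went from 0.956 to 0.571 CPM (adjusted p 0.0803) and ZNF426 from 0.294 to 0.146 CPM (adjusted p 0.13), while ZNF404 went from 1.05 to 0.662 CPM (adjusted p 0.0749), each in edgeR.

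Leaving out induced replicate 3, edgeR called 8 of 200 tested genes, 5 higher and 3 lower, against 8.12% of all genes (3.68% higher and 4.44% lower). ZNF260, ZNF274, ZNF480, ZNF813 and ZNF85 were higher, and ZNF302, ZNF568 and ZNF792 lower. For ZNF480, at 62.3, 58.8 and 57.3 CPM in controls and 69.3, 72.5 and 60.4 CPM after induction, the log2 fold change was 0.18 (adjusted p 0.307) with all libraries and 0.26 (adjusted p 0.0326, range over alternatives 0.0326 to 0.622) without that library. ZNF260 was at 90.2, 85.7 and 84.7 CPM and at 98.8, 110 and 86.4 CPM, with 0.18 (adjusted p 0.357) and 0.27 (adjusted p 0.0407, range 0.0407 to 0.658). With a correction for GC content edgeR called 5 of the 201 genes, ZNF274, ZNF813 and ZNF85 higher and ZNF235 and ZNF792 lower, against 5.14% of all genes (2.05% higher and 3.09% lower). With protein-coding genes only it called ZNF792 lower, against 4.44% of genes (2.89% lower). In both ZNF480 and ZNF260 induced replicate 3 lay within or next to the control range.

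Of the 5 most abundant genes, ZNF146, ZNF121 and ZNF850 had log2 fold changes close to 0. ZNF146 was at 261, 251 and 249 CPM in controls and 273, 281 and 247 CPM after induction, a log2 fold change of 0.07 (95% interval -0.09 to 0.24). ZNF121 was at 255, 250 and 250 CPM and at 265, 264 and 241 CPM, with 0.03 (-0.12 to 0.18). ZNF850 was at 139 ± 5.6 CPM in controls and 139 ± 15 CPM after induction, with -0.01 (-0.21 to 0.20). In each of these the groups overlapped. ZNF460 was the exception, at 99.9, 97.7 and 95.2 CPM in controls and 115, 105 and 143 CPM after induction, with all induced libraries higher. Its log2 fold change was 0.31 (SE 0.11, adjusted p 0.184 in edgeR) and 0.18 without induced replicate 3, and 24.6% of its exon bases are shared with other genes.

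Genes known from earlier work were also mostly near 0. Of 15 such genes, 12 were tested and 9 of these had a log2 fold change above 0, with a median of 0.04. ZNF274 and ZNF85, described above, belong to this list, with 0.43 and 0.46. DESeq2 called these 2, both higher, where it called 7.23% of all genes (3.11% higher). The list was chosen with results of these data known. ZNF91 was at 34.3 ± 1.4 CPM in controls and 35.4 ± 3.0 CPM after induction (log2 fold change 0.05). ZNF224, a repressor of the aldolase A gene, was at 33.6 ± 1.2 and 34.1 ± 0.76 CPM (0.02). ZNF331, an imprinted gene, was at 29.1 ± 0.79 and 29.9 ± 5.1 CPM (0.04). ZNF154, whose promoter is often methylated in tumours, was at 19.1 ± 1.6 and 19.3 ± 0.88 CPM (0.02). ZNF675, an inhibitor of TRAF6 signalling, had 0.12, ZNF569, a repressor of MAPK signalling, had 0.13, and ZNF43 and ZNF45 had -0.12 and -0.03. ZNF382 was the 1 gene of the list with the groups apart in the lower direction, at 26.8, 25.8 and 24.1 CPM in controls and 22.4, 24.0 and 19.5 CPM after induction (-0.22, adjusted p 0.279 in edgeR). ZNF536, a regulator of neuronal differentiation, and ZNF649 did not pass the count filter, with at most 0.0236 and 0.0113 CPM in any library, like ZNF93.

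**Figure D4:**
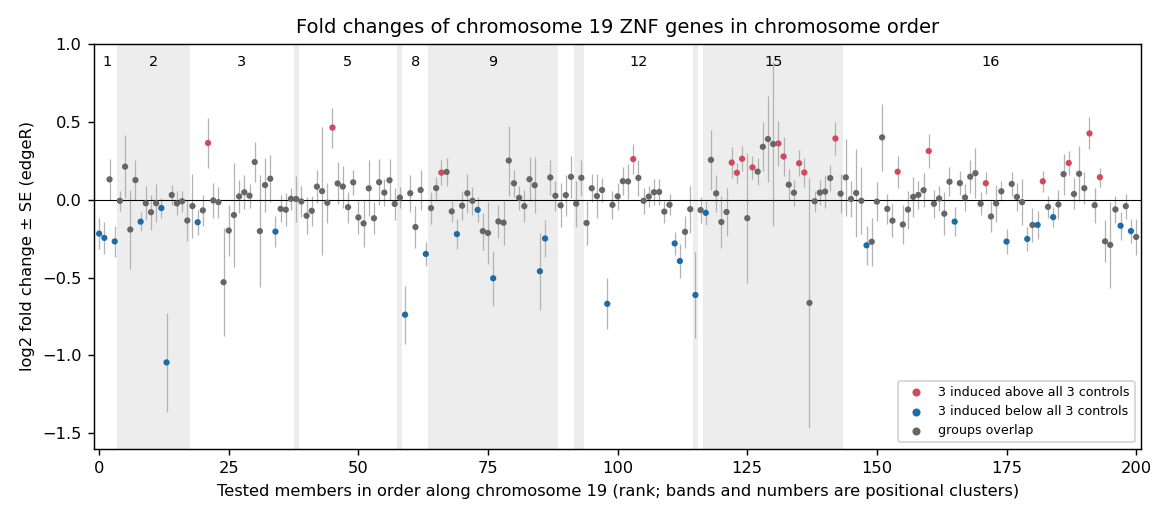
Log2 fold change ± SE (edgeR) of the 201 tested genes, ordered along chromosome 19, with bands and numbers for positional clusters. Red points have all 3 induced libraries above all controls (20 genes) and blue points have them below (28 genes). In cluster 15, 9 genes are red and 1 is blue.

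Values leaned in a single direction in some positional clusters. In cluster 15, 21 of 27 tested genes had a log2 fold change above 0 and the median was 0.17. In 9 of the 27 genes the induced libraries lay above all controls and in 1 below, where all genes gave 11.5% and 14.7%. At an unadjusted p under 0.05 there were 7 of the 27 genes, all of them higher, where 8.13% of all genes were higher at that p. The 201 ZNF genes held 13 such higher genes. They were ZNF432, ZNF841, ZNF616, ZNF766, ZNF808, ZNF28 and ZNF813, with log2 fold changes from 0.17 for ZNF841 to 0.39 for ZNF813 (named after their values were seen). None passed the adjusted threshold in edgeR, and the stretch was picked out after its values were seen, so it carries no test. The median of the cluster stayed at 0.16 without induced replicate 3, at 0.18 with a correction for GC content and at 0.14 with scaling by library size only.

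**Figure D5:**
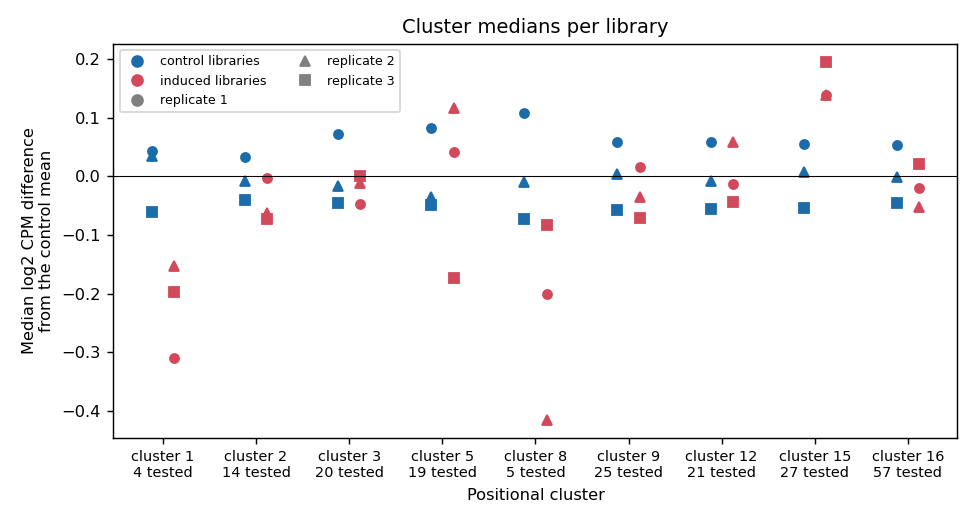
Median difference of log2 CPM from the control mean over the tested genes of each positional cluster with at least 5 genes, for each library. Blue symbols are control and red symbols induced libraries, with replicates 1, 2 and 3 as circle, triangle and square. In cluster 15 the induced libraries lie at 0.14, 0.14 and 0.19, above the controls at 0.06, 0.01 and -0.05.

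Medians in the other large clusters lay within 0.05 of 0, although the counts were not even in all of them. Cluster 16 had 27 of 57 tested genes above 0 and a median of -0.01, with 7 genes higher and 8 lower without overlap of the groups. The median was 0.02 in cluster 12, where 3 genes were lower and 1 higher at an unadjusted p under 0.05, and -0.04 in cluster 9, where 5 genes were lower and 1 higher without overlap. Cluster 3 had 8 of 20 genes above 0 and a median of -0.03. In cluster 2, 3 of 14 genes were above 0 with a median of -0.02, and 3 genes were lower and 0 higher without overlap. Cluster 5 had a median of 0.05, and its induced replicate 3 lay at -0.17 where the other induced libraries lay at 0.04 and 0.12. Cluster 1 had 1 of 4 tested genes above 0, a median of -0.23 and 3 genes lower without overlap, and cluster 8 had 2 of 5 above 0 and a median of -0.18. Neighbouring genes of a cluster differed by a median of 0.132 on the log2 scale (186 pairs), and 58.1% had the same sign. Genes of different clusters differed by 0.165 and 49.5% had the same sign (17171 pairs). Pairs share genes and libraries, so these values are a description.

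Among 169 tested genes with the KRAB-box pattern 25 had an unadjusted p under 0.05 (14.8%, against 18.7% of all genes) and 46 had groups that did not overlap (27.2%, against 26.3% of all genes), so neither share stood above that of all genes by more than 1 percentage point. Among the 32 tested genes without it these numbers were 0 and 2. The median log2 fold change was -0.01 in the first class and 0.00 in the second. Spearman's rho between the number of fingers and the log2 fold change was 0.06, and between GC content and the log2 fold change it was -0.09, each across 201 genes that share libraries and are not independent. Of the 81 tested genes with CCGGAAG in the promoter, 13 were higher and 7 lower without overlap of the groups. Of the 101 with a promoter but no such motif, 6 were higher and 17 lower. All genes gave 11.5% higher and 14.7% lower. The classes leaned in opposite directions, towards higher with the motif and towards lower without it, which was not tested. In both directions together 24.7% and 22.8% of these classes did not overlap, against 26.3% of all genes. The medians were 0.02 and -0.01.

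The proteins that carry out KRAB silencing were measured as a list of 29 genes, all of which were tested. None passed the threshold in edgeR and DESeq2 called 1, while 6 of them had an unadjusted p under 0.05. Over all genes edgeR called 3.4%, DESeq2 called 7.23%, and 18.7% had such a p, so these counts were near or below the background. The median log2 fold change was -0.01, with 14 of 29 above 0. ATF7IP2, a SETDB1 cofactor paralog, was at 0.338 CPM in controls and 0.118 CPM after induction, with an adjusted p of 0.0552 in edgeR and 0.0197 in DESeq2. Without induced replicate 3 edgeR called CHD3 and HDAC2 of the NuRD complex, both higher, with log2 fold changes of 0.22 and 0.32, where 8.12% of all genes were called.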

How the data were processed

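RNA of SK-N-AS cells was measured in 3 control and 3 induced libraries, grouped by the sample labels. The authors deposited estimated counts per gene. Per the file headers these are unique STAR alignments counted over exons by featureCounts 1.6.4, with read pairs shared in equal fractions between overlapping genes and no strand option. The submitters' processing notes name STAR 2.7.1a, featureCounts 1.5.1 and GRCh38, and the study's methods add a strand option, so the discrepancy stays in the values. The headers name no annotation release. Of the gene identifiers, 99.65% matched GENCODE 44, which gave names, classes and coding sequences.

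Counts were rounded. A gene entered the test at 10 or more counts in 3 or more libraries. The test was edgeR 4.0.16 (R 4.3.3, TMM, quasi-likelihood test, Benjamini-Hochberg adjustment over all genes tested, threshold 0.05) and DESeq2 1.42.0 was an alternative. TPM were computed from exon lengths in the headers. The KRAB box and C2H2 fingers were found by letter patterns in proteins translated from GENCODE 44. Simulated libraries carried 2-fold changes in 200 of 28597 genes. There edgeR called 109 of the 200 (54.5%) and 9 unchanged genes. DESeq2 called 127 of the 200 (63.5%) and 35 unchanged genes, and neither gave a wrong sign. These shares apply to 2-fold changes, while 194 of the 201 tested ZNF genes had log2 fold changes within 0.5. A gene without a call may therefore have changed, and a DESeq2 call may be false. Genes named are MYCN, any ZNF gene past the threshold, the 5 with the highest TPM, the 5 largest changes in each direction at a mean of at least 1 CPM, 15 studied genes, the 5 smallest p without induced replicate 3, and TRIM28 and SETDB1. The genes and lists were chosen with earlier results of these data known. The chi-square per gene between replicates was 12.1 to 145.6, beyond sampling noise, and each library counted as 1 sample. At a count of 3, the floor was 0.0293 to 0.0465 CPM, for counting error only.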

Additional observations from a re-analysis of the deposited data

How the results depend on the processing

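The chromosome 19 ZNF genes called were 3 higher and 3 lower with DESeq2, and 3 higher and 2 lower with a GC correction. They were 2 higher and 4 lower at an adjusted p under 0.1, where ATF7IP2, 1 KRAB partner gene, was also called. With at least 100 counts in every library, and with protein-coding genes only, 1 was lower (ZNF792). With the replicate block and a GC correction 1 was higher (ZNF274), and with the replicate block alone 0 were called. ATF7IP2 was the 1 KRAB partner gene called by DESeq2, without a count filter and with the GC correction. For the 0.1 threshold and the filter of 100 counts the share of all genes called was not computed. The same holds for the fit without a count filter and for the replicate block with GC correction. Counts from these settings therefore have no background beside them. Leaving out 1 library at a time gave 0 to 5 higher, 0 to 3 lower and 0 to 2 partner genes, and every call came from leaving out induced replicate 3. The cause was not tested. Other normalizations, a threshold of 0.01 and genes with little exon overlap gave 0 ZNF calls. The log2 fold change of MYCN ran from 2.63 to 2.74. The median over the ZNF genes kept within the spread between libraries in every alternative, and scaling by library size only moved the median of all genes by -0.03.

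Of 425 values of 25 named genes, 382 kept their side and direction, 20 passed the threshold, and 23 reversed in sign, all in genes that were not called. With library size only these were ZNF121 (-0.000287), ZNF224 (-0.0133) and ZNF154 (-0.0157), and with the upper quartile ZNF224 (-0.0119) and ZNF154 (-0.0149). ZNF850 became 0.00915 with DESeq2 size factors in edgeR, 0.00912 with DESeq2, 0.00706 without a filter, 0.00287 with the GC correction and 0.0017 with the length correction. Leaving out 1 library at a time gave -0.0516 to 0.0884 for ZNF850, -0.081 to 0.0536 for ZNF45, -0.0215 to 0.0858 for ZNF154, -0.0475 to 0.181 for ZNF331, -0.00351 to 0.0452 for ZNF224, -0.0115 to 0.118 for ZNF91, -0.0178 to 0.263 for ZNF569 and -0.0224 to 0.591 for ZNF880.

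Same-numbered libraries shared deviations with correlations of 0.22, -0.02 and 0.07, a mean of 0.09 against -0.05 between different numbers. Of 6 libraries, 3 correlated best with their own number. With so few libraries this does not settle whether the numbers pair the samples. The main test did not pair them. At these depths, genes under about 1 CPM carry wide intervals.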
